A study of Mus musculus with 6 samples.

Results

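The mouse acute phase plasma protein genes described here are the serum amyloid A genes Saa1, Saa2, Saa3 and Saa4, the orosomucoid genes Orm1, Orm2 and Orm3, haptoglobin (Hp), hemopexin (Hpx) and lipocalin 2 (Lcn2). They were taken by symbol from liver RNA sequencing tables, and all 10 were found among 18253 gene symbols. The livers came from C57BL/6 mice labelled as postnatal day 21, and every animal had received alpha-naphthylisothiocyanate (ANIT), a bile duct toxicant given to model cholestasis. The 3 ANIT libraries had no other treatment and the 3 ANIT plus celastrol libraries also had celastrol, a plant triterpenoid, with a treatment period labelled as 5 days. No group went without ANIT, so the values compare the 2 groups with each other and not with normal liver. Whether the libraries are from different animals is not stated, and p-values then reflect the spread between samples that may be technical replicates.

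Hepatocytes secrete these proteins into plasma, and in infection or tissue injury interleukin-6 and interleukin-1 raise their transcription through STAT3, C/EBP and NF-kB factors. SAA1 and SAA2 become apolipoproteins of high density lipoprotein, SAA3 is made in many tissues including by macrophages, and SAA4 is known as the constitutive member. Orosomucoids, also called alpha-1-acid glycoproteins, carry small molecules in plasma. Haptoglobin binds free hemoglobin, hemopexin binds free heme, and lipocalin 2 binds bacterial siderophores and so withholds iron.

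The Saa genes lie together on mouse chromosome 7 in build mm10. Saa3 spans positions 46711998 to 46715700, Saa4 46727998 to 46732603, Saa1 46740497 to 46742980 and, on the opposite strand, Saa2 46751790 to 46754313. The Orm genes follow each other on chromosome 4, Orm1 at 63344560 to 63348163, Orm3 at 63356162 to 63359511 and Orm2 at 63362449 to 63365878. Hp is on chromosome 8 (109575128 to 109579172), Hpx on chromosome 7 (105591613 to 105600137) and Lcn2 on chromosome 2 (32384633 to 32388252). These positions are those of GENCODE release M21.

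Sequences upstream of the start sites are shown because several of the genes moved together, and any link of the sequences to these changes was not tested. RefSeq promoters (GRCm38.p6) matched 8 of the 10 genes, and those of Orm1 and Hp are not shown. The 4 stretches below run from 250 to 51 bases before the RefSeq start, 5′ to 3′ on the strand of the gene, with matches to the C/EBP letters TTGCNNAA on either strand in capitals. They lie at chr7:46743031-46743230 (Saa1, minus strand), chr7:46751583-46751782 (Saa2, plus), chr4:63362199-63362398 (Orm2, plus) and chr4:63355908-63356107 (Orm3, plus), and no GENCODE exon overlaps them.
Saa1: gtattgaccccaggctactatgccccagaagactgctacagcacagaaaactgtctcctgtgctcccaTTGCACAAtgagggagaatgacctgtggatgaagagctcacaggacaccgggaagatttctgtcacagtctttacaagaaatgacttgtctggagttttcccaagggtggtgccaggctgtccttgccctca
Saa2: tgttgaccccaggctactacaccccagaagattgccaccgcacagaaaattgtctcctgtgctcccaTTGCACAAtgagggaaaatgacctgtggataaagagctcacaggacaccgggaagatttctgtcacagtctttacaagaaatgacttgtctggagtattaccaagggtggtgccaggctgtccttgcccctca
Orm2: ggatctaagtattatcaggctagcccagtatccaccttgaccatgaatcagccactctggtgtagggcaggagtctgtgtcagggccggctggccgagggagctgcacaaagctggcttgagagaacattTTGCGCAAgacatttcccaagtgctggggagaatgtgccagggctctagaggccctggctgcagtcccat
Orm3: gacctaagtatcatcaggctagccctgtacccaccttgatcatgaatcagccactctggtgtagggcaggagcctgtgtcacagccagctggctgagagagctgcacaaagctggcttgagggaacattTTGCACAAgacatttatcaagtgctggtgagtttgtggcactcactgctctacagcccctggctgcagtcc

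All 8 promoters held a match to TTGCNNAA within 250 bases before the start, compared with 9.56% of 32851 RefSeq promoter windows of that length. The motifs were chosen with earlier results of these data known, so these counts are descriptions and not tests. The Saa1 and Saa2 windows were 94.8% identical and those of Orm2 and Orm3 85.5% identical, so these promoters are copies of each other and not separate instances. The matches began 182 and 183 bases before the start in Saa1 and Saa2, and 120 and 121 bases before it in Orm2 and Orm3. The other 4 genes carried theirs in unlike surroundings, shown here with the flanking bases.
Saa3, 99 bases before the start: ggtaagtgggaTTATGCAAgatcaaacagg
Saa4, 52 bases before the start: accaggaaggaTTGAGCAAgagggactctg
Hpx, 200 bases before the start: tggctggaaatTTGCTGAAgggggtagggg
Lcn2, 216 bases before the start: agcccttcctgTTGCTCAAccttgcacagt
These lie at chr7:46715757-46715786, chr7:46732637-46732666, chr7:105600298-105600327 and chr2:32387937-32387966, all on the minus strand. The windows of Saa2, Saa3, Hpx and Lcn2 overlap annotated exons of the same genes in GENCODE. Only the Lcn2 window lies wholly inside the span given above for its gene. In Lcn2 alone do exons also reach the bases from 250 to 51 before the start. Saa4 had a further match 245 bases before its start. None of the 8 windows held the STAT letters TTCNNNGAA (7.02% of all windows), the interleukin-6 type letters CTGGGAA (9.10%) or the NF-kB consensus (3.90%), searched on both strands. With shares this low, 8 windows are too few for an absence to set these genes apart from others. Matches to TTGCNNAA were present both in genes called higher below (Saa1, Saa2, Orm2 and Orm3) and in genes not called (Saa3, Saa4, Hpx and Lcn2). A match is a run of letters and not a measured binding site.

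Values are FPKM (fragments counted per kilobase of gene and scaled to the library size), so levels of different genes are compared per length. Each library listed 15900 to 16404 rows, and the step between low values put the depth at an estimated 18820000 to 19720000 reads. The best step stood only a little above the next best in each library, so the depth is uncertain. If it holds, Orm3, the least abundant of the 10 genes, rests on about 388 to 3023 reads per library. Tests used limma on log2(FPKM + 1) over 10593 genes that reached 1 FPKM in 3 or more libraries, and a gene was called at a Benjamini-Hochberg adjusted p under 0.05.

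All 10 genes had a positive log2 fold change in the celastrol group, and 6 were called higher (Saa1, Saa2, Orm1, Orm2, Orm3 and Hp) and 0 lower. Of all tested genes, 4.41% were called higher and 20.6% lower, 25.0% in all. The 2 groups did not overlap, with celastrol higher, for 7 of the 10 genes, the 6 called ones and Hpx, compared with 8.35% of tested genes, while 36.6% did not overlap with celastrol lower. The median log2 fold change was 1.25 for the 10 genes and -0.17 for all tested genes. The 77 tested genes with a mean of at least 1000 FPKM had a median of 0.41, and 31.2% of them were called higher. They include 7 of the 10 genes, 5 of these among the 24 higher calls, and leave out Saa3, Saa4 and Orm3, whose means were lower. The count was 8 without celastrol replicate 2, where Hpx and Lcn2 were added, 4 without ANIT replicate 1, and 2 (Orm2 and Orm3) without ANIT replicate 2, ANIT replicate 3, celastrol replicate 1 or celastrol replicate 3. Calls over all tested genes moved too. The share called higher was 4.56% without celastrol replicate 2 and 2.85% without ANIT replicate 1. Without ANIT replicate 2, ANIT replicate 3, celastrol replicate 1 or celastrol replicate 3 it was 2.45%, 3.0%, 1.87% and 3.45%.

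**Figure D1:**
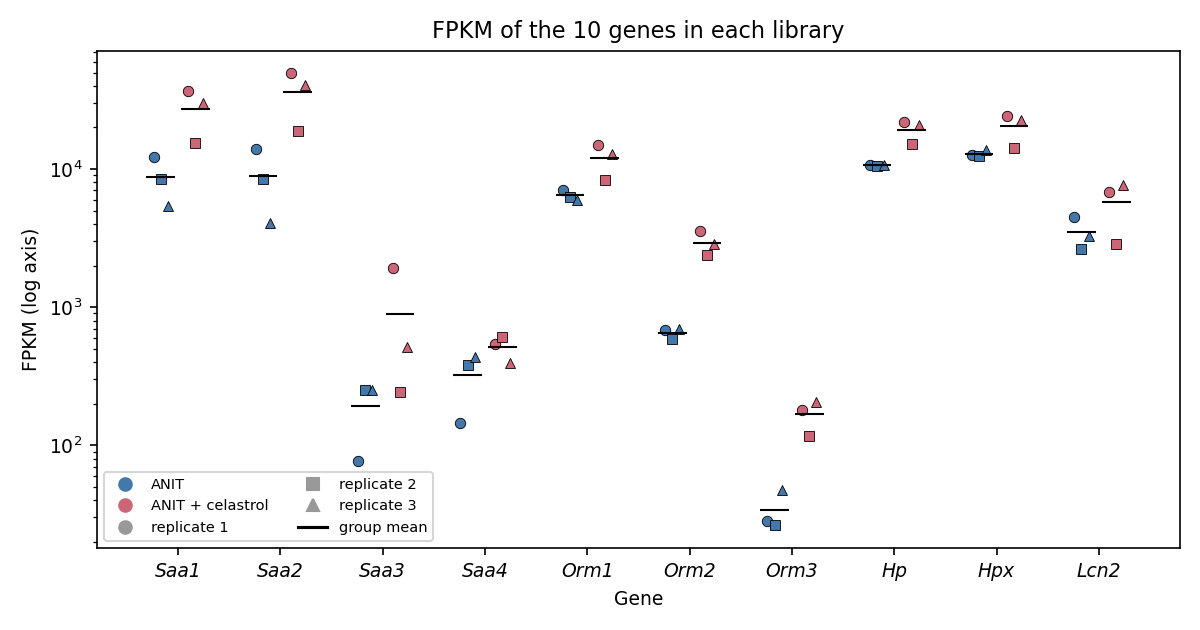
FPKM of each gene (log axis) in the 3 ANIT libraries (blue) and the 3 ANIT plus celastrol libraries (red), with marker shape for the replicate number and a black line for the group mean. The groups are separate for Saa1, Saa2, the 3 Orm genes, Hp and Hpx, and overlap for Saa3, Saa4 and Lcn2.

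**Figure D2:**
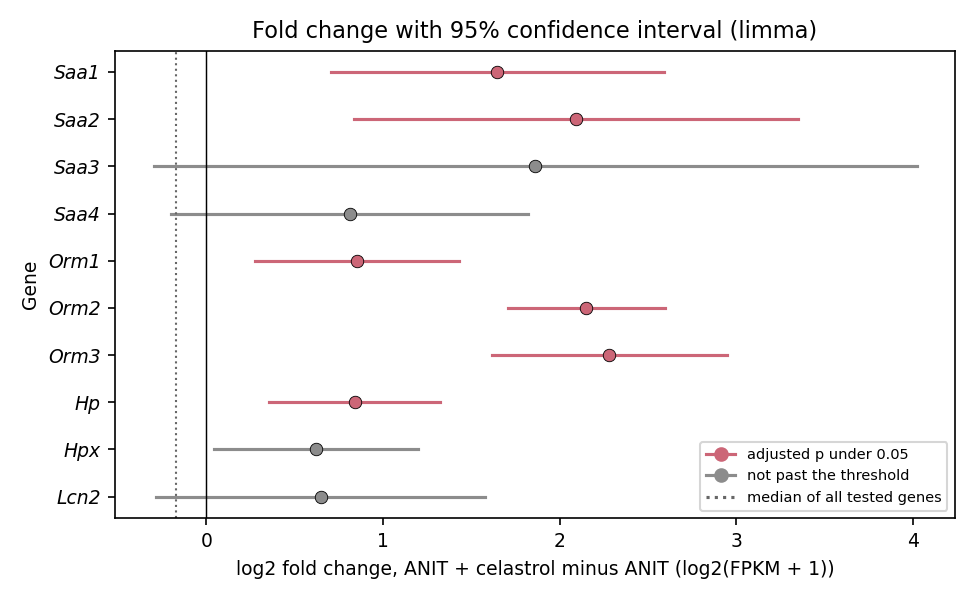
Log2 fold change (ANIT plus celastrol minus ANIT, log2(FPKM + 1) scale) of each gene with its 95% confidence interval from limma. Red points passed the adjusted p threshold, grey ones did not, and the dotted line marks the median of all tested genes at -0.17.

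Saa1 and Saa2 had the highest FPKM of all genes in the celastrol livers. Saa1 measured 12186, 8471 and 5410 FPKM in ANIT replicates 1, 2 and 3 and 36454, 15564 and 30295 FPKM in celastrol replicates 1, 2 and 3. Each celastrol library lay above every ANIT library, although celastrol replicate 2 exceeded ANIT replicate 1 only by a factor of 1.28. The mean rose 3.16-fold, from 8689 ± 3393 to 27438 ± 10734 FPKM (SD, n = 3 each), which is 1.65 on the log2 scale (SE 0.40, limma adjusted p = 0.025). Saa2 measured 13928, 8518 and 4086 FPKM with ANIT against 49322, 18842 and 40589 FPKM with celastrol. Its libraries stood in the same order as those of Saa1. Its mean rose 4.10-fold, with a log2 difference of 2.09 (SE 0.53, limma adjusted p = 0.030). Saa2 ranked first and Saa1 second by FPKM in all 3 celastrol libraries, whereas in the ANIT libraries Saa2 ranked 2, 5 and 18 and Saa1 4, 6 and 10. Albumin (Alb) headed the 3 ANIT libraries. Ranks between genes depend on the gene lengths used for the FPKM, which were not stated. Both Saa calls were lost when ANIT replicate 2, ANIT replicate 3, celastrol replicate 1 or celastrol replicate 3 was left out (limma adjusted p from 0.069 to 0.088 for Saa1 and from 0.059 to 0.101 for Saa2), while without ANIT replicate 1 or celastrol replicate 2 they held. The Saa1 call was also lost after quantile normalization (limma adjusted p = 0.056) and the Saa2 call without the abundance filter (0.051).

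Saa3 and Saa4 were far less abundant and did not pass. Saa3 measured 77.0, 252.3 and 252.3 FPKM with ANIT against 1918, 241.6 and 514.5 FPKM with celastrol. Celastrol replicate 1 stood far above the rest and celastrol replicate 2 fell below 2 of the ANIT libraries, so the groups overlapped. The log2 fold change was 1.86 with a 95% confidence interval from -0.30 to 4.02 (limma adjusted p = 0.17), and 1.05 without celastrol replicate 1. Saa4 measured 145.5, 380.6 and 437.6 FPKM with ANIT against 544.8, 609.1 and 396.4 FPKM with celastrol. Its groups overlapped too, and its log2 fold change of 0.81 had an interval from -0.20 to 1.82 (limma adjusted p = 0.20). ANIT replicate 1, the highest ANIT library for Saa1 and Saa2, was the lowest for Saa3 and Saa4, and without it the Saa4 value was 0.32. Summed FPKM of 11 macrophage and Kupffer cell markers was also lowest in ANIT replicate 1, at 105.4 against 195.9 and 280.1 in the other ANIT libraries and 183.4 to 266.2 with celastrol. Its part in the Saa3 and Saa4 values was not tested. In bulk tissue a change in the number of cells of a type and a change in RNA per cell cannot be told apart.

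Within the Saa pair the share of Saa1 was lower with celastrol. Saa1 made up 46.7%, 49.9% and 57.0% of the Saa1 plus Saa2 FPKM with ANIT and 42.5%, 45.2% and 42.7% with celastrol. The groups did not overlap, and the mean fell from 51.2 ± 5.27% to 43.5 ± 1.51% (SD, n = 3 each; two-sided exact permutation p = 0.1, the smallest that 3 against 3 libraries allow). The difference was -7.67 percentage points with all libraries and -4.77 without ANIT replicate 3. The 2 messages are close copies. Of the 50-base stretches of the Saa1 transcript 13.2% occur in Saa2, so some reads cannot be assigned to one of them, and how the authors treated such reads is not given in the sources used here.

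The orosomucoid genes Orm2 and Orm3 kept their call in every alternative fit. Orm2 measured 683.1, 585.5 and 690.8 FPKM with ANIT against 3566, 2381 and 2862 FPKM with celastrol. The lowest celastrol library was 3.45 times the highest ANIT library. The mean rose 4.50-fold, from 653.1 ± 58.7 to 2936 ± 596.1 FPKM (SD, n = 3 each). On the log2 scale this is 2.15, with a 95% confidence interval from 1.71 to 2.59 (SE 0.19, limma adjusted p = 0.00079). Orm3 measured 28.1, 26.3 and 47.3 FPKM with ANIT against 178.8, 117.4 and 206.5 FPKM with celastrol. Its lowest celastrol library was 2.48 times its highest ANIT library, and its log2 difference was 2.28 (SE 0.28, limma adjusted p = 0.0026). Orm2 and Orm3 passed under all 15 alternatives run, with adjusted p up to 0.0061 for Orm2 and 0.016 for Orm3.

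Orm1, the main orosomucoid transcript, moved less. It measured 7108, 6292 and 5993 FPKM with ANIT against 14864, 8320 and 12787 FPKM with celastrol. The groups were separate, with celastrol replicate 2 at 1.17 times the highest ANIT library. The mean rose 1.85-fold, which is 0.85 on the log2 scale (SE 0.25, limma adjusted p = 0.041). It failed to pass without any 1 of the ANIT libraries and without celastrol replicate 1 or 3 (limma adjusted p from 0.084 to 0.143). It was also lost without the abundance filter (adjusted p = 0.078), when scaled without the 20 most abundant genes (0.0615) and after quantile normalization (0.31).

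The make-up of the orosomucoid pool also differed. Orm2 contributed 8.74%, 8.48% and 10.3% of the summed Orm FPKM in the ANIT group and 19.2%, 22.0% and 18.1% in the celastrol libraries. Its mean share rose by 10.6 percentage points, while that of Orm1 went from 90.4 ± 1.15% to 79.1 ± 1.97% (SD, n = 3 each). Orm3 went from 0.481 ± 0.193% to 1.12 ± 0.173% (SD, n = 3 each). The groups did not overlap for any of these 3 shares (two-sided exact permutation p = 0.1 each, and 0.1 when adjusted over the 4 shares with that of Saa1). Celastrol replicate 2 had the lowest FPKM of all 3 Orm genes in its group but the highest Orm2 share. Of the 50-base stretches of the Orm1 transcript 20.4% occur in Orm2 and 2.20% in Orm3.

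**Figure D3:**
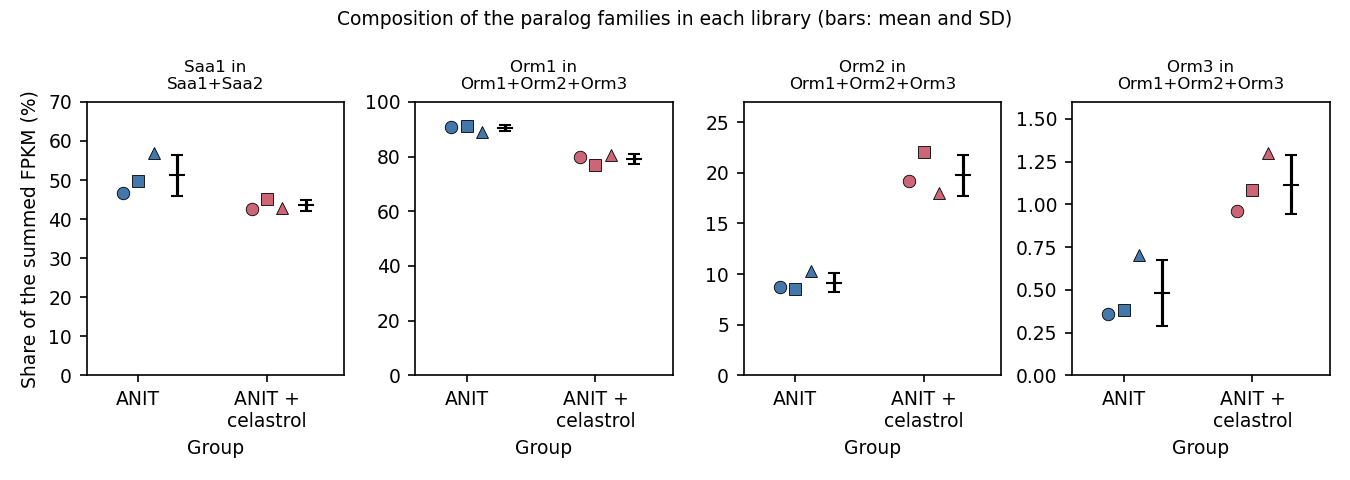
Share of Saa1 in the summed Saa1 and Saa2 FPKM, and shares of Orm1, Orm2 and Orm3 in the summed Orm FPKM (percent), in each library by group, with marker shape for the replicate and a bar for mean and SD beside the points. In all 4 panels the ANIT and ANIT plus celastrol libraries are separate, and the Orm2 share is 8.48% to 10.3% against 18.1% to 22.0%.

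Haptoglobin was nearly constant among the ANIT libraries, at 10640, 10548 and 10745 FPKM, and measured 21856, 15092 and 20951 FPKM with celastrol. The ANIT values span a factor of 1.02 and the celastrol values one of 1.45, and the groups were separate. The mean rose 1.81-fold, with a log2 difference of 0.84 (SE 0.21, limma adjusted p = 0.024). It failed to pass without any 1 of the ANIT libraries and without celastrol replicate 1 or 3 (limma adjusted p from 0.068 to 0.0995), and after quantile normalization (0.50). Hemopexin measured 12669, 12374 and 13644 FPKM with ANIT against 24401, 14119 and 22556 FPKM with celastrol. Celastrol replicate 2 was only 1.03 times the highest ANIT library, and the log2 fold change of 0.62 (95% confidence interval 0.04 to 1.20) did not pass (limma adjusted p = 0.10). As a share of the library FPKM sum the groups overlapped, at 2.34%, 2.32% and 2.50% with ANIT against 4.06%, 2.41% and 3.88% with celastrol (two-sided exact permutation p = 0.2). Without celastrol replicate 2 Hpx had a log2 fold change of 0.86 and passed (limma adjusted p = 0.0071). With any other single library left out it was 0.47 to 0.66 and did not pass (limma adjusted p from 0.18 to 0.30). The ratio of Hp to Hpx FPKM was 0.840, 0.852 and 0.788 in the ANIT group and 0.896, 1.07 and 0.929 in the celastrol libraries, a difference that was not tested.

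Lipocalin 2 measured 4532, 2654 and 3266 FPKM with ANIT against 6859, 2882 and 7624 FPKM with celastrol. Celastrol replicates 1 and 3 lay above all ANIT libraries, and celastrol replicate 2 fell among them. The log2 fold change was 0.65 (95% confidence interval -0.29 to 1.58, limma adjusted p = 0.26), and without celastrol replicate 2 it was 1.09 and passed (limma adjusted p = 0.015). With any other single library left out it was 0.39 to 0.85 and did not pass (limma adjusted p from 0.22 to 0.55). Neutrophils store lipocalin 2 in their granules, and summed FPKM of 10 neutrophil markers was 27.6 to 49.7 with ANIT and 61.6 to 90.3 with celastrol. Of the 5 tested neutrophil markers S100a8, S100a9 and Ngp were called higher, against 4.41% of all tested genes. Retnlg (log2 fold change 0.36) and Cxcr2 (0.04) had overlapping groups and did not pass (limma adjusted p of 0.13 and 0.86). The Ngp call held with any 1 library left out. That of S100a8 was lost without ANIT replicate 3 or celastrol replicate 1 or 3, and that of S100a9 without any single library but ANIT replicate 2 (limma adjusted p up to 0.094 and 0.11). Camp was listed in ANIT replicate 2 only among the ANIT libraries, and Elane measured 0.06 FPKM in each. Among the celastrol libraries the marker sum was 67.6 in replicate 2, between the 61.6 of replicate 1 and the 90.3 of replicate 3, while Lcn2 was lowest in replicate 2. The part of neutrophils in the Lcn2 values was not tested.

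As a share of the FPKM sum of each library, the 10 genes took 11.4%, 9.41% and 8.17% in ANIT replicates 1, 2 and 3 and 26.6%, 13.3% and 23.9% in celastrol replicates 1, 2 and 3. The groups did not overlap. The mean share rose from 9.67 ± 1.66% to 21.3 ± 7.01% (SD, n = 3 each), a difference of 11.6 percentage points (two-sided exact permutation p = 0.1, the smallest possible). Saa1 and Saa2 supplied most of it, with 3.25 ± 1.54% against 10.8 ± 4.38% (SD, n = 3 each). Hp plus Hpx went from 4.36 ± 0.095% to 6.72 ± 1.51%, and the 3 Orm genes from 1.32 ± 0.108% to 2.56 ± 0.643% (SD, n = 3 each). By library the difference ranged from 8.92 points without celastrol replicate 1 to 15.6 points without celastrol replicate 2. Albumin moved the other way, from 29351, 29532 and 38656 FPKM to 5341, 10051 and 5563 FPKM (log2 fold change -2.27, limma adjusted p = 0.0024). The FPKM ratio of Saa1 to Alb was 0.140 to 0.415 in the ANIT group and 1.55 to 6.83 in the celastrol libraries. The size of this ratio also depends on the gene lengths used, which were not stated. Of 7 hepatocyte markers listed, 6 had a negative and 1 a positive log2 fold change, with a median of -0.18, close to that of all tested genes. Alb alone was called, while 20.6% of all tested genes were called lower. The groups of Ahsg and Serpinc1 also did not overlap, with celastrol lower (-0.38 and -0.24, limma adjusted p of 0.18 and 0.25). With Alb this makes 3 of 7, near the 36.6% of all tested genes that did not overlap with celastrol lower. The positive value was that of Hnf4a, a hepatocyte nuclear receptor (0.11, limma adjusted p = 0.56).

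**Figure D4:**
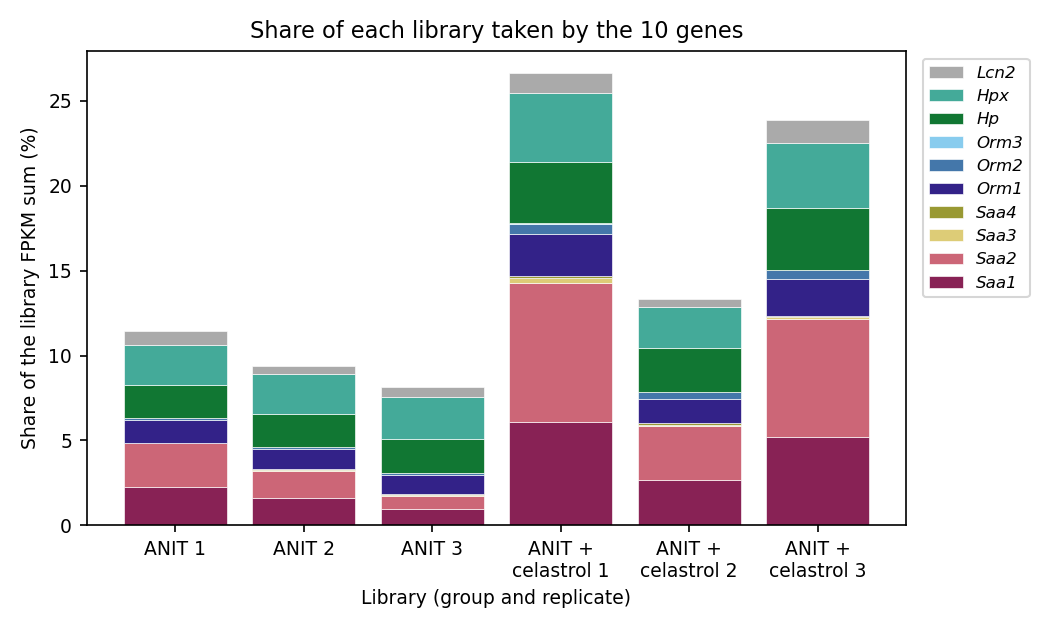
Share of the library FPKM sum (percent) taken by each of the 10 genes, stacked, in the 6 libraries. The stack reaches 8.17% to 11.4% with ANIT and 13.3% to 26.6% with ANIT plus celastrol, and celastrol replicate 2 is the lowest of its group.

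Celastrol replicate 2 was the lowest of its group for 9 of the 10 genes, all but Saa4, for which it was the highest. The ANIT libraries showed no such order, since replicate 1 was highest for 4 genes, replicate 3 for 5 and replicate 2 for Saa3. The coefficient of variation within the ANIT group ran from 0.924% for Hp to 55.7% for Saa2. Within the celastrol group it ran from 19.03% for Hp to 101% for Saa3.

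The 22 other acute phase genes of a list of plasma proteins, metallothioneins and related genes were all tested, and 9 were called higher and 0 lower, with a median log2 fold change of 0.79, against 4.41% higher, 20.6% lower and a median of -0.17 over all tested genes. The 3 fibrinogen chains were among them, with C-reactive protein and serum amyloid P component. Apcs, which encodes serum amyloid P, rose from 707.5 ± 139.1 to 2336 ± 981.6 FPKM (SD, n = 3 each), which is 1.63 on the log2 scale (limma adjusted p = 0.018). Fga, Fgb and Fgg had log2 fold changes of 1.32, 1.24 and 1.39 (limma adjusted p of 0.021, 0.021 and 0.013). Crp (0.92) and Itih3 (1.11), an inter-alpha-trypsin inhibitor heavy chain, were also called, as were Hamp2 (1.07), C4b (0.94) and Mt1 (0.66). Of these 9 calls those of Hamp2 and C4b held with any 1 library left out. The other 7 were each lost without celastrol replicate 1 and at least 1 other library (limma adjusted p up to 0.15), and the list count was 2 without celastrol replicate 1, 3 without ANIT replicate 2, ANIT replicate 3 or celastrol replicate 3, and 15 without celastrol replicate 2. Over all tested genes 1.87% were called higher without celastrol replicate 1 and 4.56% without celastrol replicate 2. After quantile normalization Fga, Fgb, Fgg, Itih3 and Mt1 were lost (limma adjusted p from 0.0696 to 0.19), without the abundance filter Crp (0.054) and Mt1, and Mt1 also with the replicate number as a block. Lbp (0.09), C3 (0.21) and Cfb (-0.32), 3 genes of innate defence, did not pass, with limma adjusted p of 0.80, 0.43 and 0.35.

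By likeness of pattern over the 6 libraries, measured as the root mean squared difference in centred log2(FPKM + 1), the genes nearest to Saa1 outside the 10 were Apcs (0.206), Fgg (0.259) and Fga (0.277). Those nearest to Hp were Rpap3 (0.047), Dpy19l1 (0.088) and Pld1 (0.088), whose highest value was 21.2 FPKM for Dpy19l1. Plac8, Syne4 and E2f8 were nearest to Orm2 (0.246, 0.246 and 0.2498), and Spink1, Ocstamp and Serpina3m to Lcn2 (0.167, 0.189 and 0.206). Several of these were low. E2f8 measured 0.15 to 0.49 FPKM with ANIT and 4.15 to 4.70 FPKM with celastrol, and Spink1 0.26 to 3.47 FPKM over all libraries. The added 1 shrinks the log2 differences of such low genes. Among the 10 genes themselves, the nearest to Saa1 was Saa2, to Orm2 it was Orm3, and to Hp and to Lcn2 it was Orm1. These are descriptions over 6 libraries.

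Signalling genes that act upstream of these proteins came next. Of 27 listed cytokines, receptors and factors 23 were tested, 3 were called higher and 6 lower, with a median log2 fold change of 0.07. Over all tested genes 4.41% were called higher and 20.6% lower, so the share of this list called lower lay near that of all genes. Stat3, the factor activated by interleukin-6 family cytokines, measured 43.7, 36.3 and 41.8 FPKM with ANIT against 59.1, 60.5 and 56.5 FPKM with celastrol. Its groups were separate, and its log2 difference was 0.53 (SE 0.12, limma adjusted p = 0.018). Cebpa, a hepatocyte C/EBP factor, rose from 69.4 ± 7.45 to 135.6 ± 32.0 FPKM (SD, n = 3 each), which is 0.94 on the log2 scale (limma adjusted p = 0.012). Osmr, the oncostatin M receptor chain, was called higher at 0.81 (limma adjusted p = 0.039). Cebpb, the C/EBP factor best known in the acute phase response, measured 77.6, 68.7 and 89.3 FPKM with ANIT against 55.7, 75.2 and 68.6 FPKM with celastrol and did not pass (limma adjusted p = 0.30). Socs3, a feedback inhibitor induced by STAT3, measured 13.7, 12.6 and 17.4 against 42.9, 22.5 and 16.97 FPKM (limma adjusted p = 0.12).

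Nfkbia, Nfkb1 and Rela, of the NF-kB system, were called lower. Nfkbia, which encodes the inhibitor IkB-alpha and is itself an NF-kB target, fell from 38.4 ± 5.84 to 16.5 ± 1.86 FPKM (SD, n = 3 each), which is -1.16 on the log2 scale (limma adjusted p = 0.0022). The subunit genes Nfkb1 and Rela had log2 fold changes of -0.65 and -0.44 (limma adjusted p of 0.0075 and 0.019), and Il22ra1, a receptor chain for interleukin-22, one of -1.51 (limma adjusted p = 0.0032). Tyk2 (-0.52) and Il6ra (-0.41), a kinase and the interleukin-6 receptor chain, were also called lower (limma adjusted p of 0.012 and 0.049). The calls of Cebpa, Nfkbia, Nfkb1, Il22ra1 and Tyk2 held with any 1 library left out. That of Stat3 was lost with ANIT replicate 2, ANIT replicate 3 or celastrol replicate 1 left out, that of Rela with any of these or celastrol replicate 3 left out, and those of Osmr and Il6ra without any single library but celastrol replicate 2 (limma adjusted p up to 0.091, 0.084, 0.13 and 0.16). Under median-ratio scaling, 5 of the list were called higher and 3 lower, and Tyk2, Rela, Il6ra and Osmr were lost. Il6 measured at most 0.10 FPKM and Tnf at most 0.23 FPKM in any library, and Il1b 0.90, 1.82 and 1.27 with ANIT against 0.83, 1.73 and 3.10 FPKM with celastrol (limma adjusted p = 0.56).

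Among 17 genes for receptors and partners of the proteins, 11 were tested, 1 was called higher and 2 lower, with a median log2 fold change of -0.31. These counts are small and lie near the 4.41% and 20.6% of all tested genes, whose median was -0.17. Lrp1, the receptor for hemopexin bound to heme, measured 69.95, 62.4 and 54.7 FPKM with ANIT against 103.9, 95.5 and 90.3 FPKM with celastrol. The groups were separate and the log2 difference was 0.63 (SE 0.14, limma adjusted p = 0.016), a call that ended on leaving out ANIT replicate 2, ANIT replicate 3 or celastrol replicate 1 (limma adjusted p up to 0.072). Cd163, the macrophage receptor for haptoglobin bound to hemoglobin, measured 2.25, 4.46 and 3.89 against 6.65, 6.48 and 4.95 FPKM and did not pass (limma adjusted p = 0.053). Its groups were separate. It was called higher under median-ratio scaling, scaling without the 20 most abundant genes and quantile normalization (limma adjusted p down to 0.030). With any 1 library left out it did not pass. Hmox1, which degrades heme, fell from 57.2 ± 13.4 to 17.1 ± 0.663 FPKM (SD, n = 3 each), which is -1.66 on the log2 scale (limma adjusted p = 0.0012), and the call held with any 1 library left out. Tlr2, a receptor reported for serum amyloid A, was called lower at -1.69 (limma adjusted p = 0.049). Leaving out any single library but ANIT replicate 1 ended the call (limma adjusted p up to 0.14). The Tlr2 call was also lost without the abundance filter, under median-ratio scaling and after quantile normalization. Scaling without the 20 most abundant genes and the replicate block ended it too (limma adjusted p up to 0.075 over these alternatives). Apoa1, the main apolipoprotein of high density lipoprotein, did not pass (-0.31, limma adjusted p = 0.33). The 6 erythroid markers, hemoglobin genes among them, summed to 229.1 to 428.1 FPKM with ANIT and 49.0 to 226.3 FPKM with celastrol, and celastrol replicate 2 was the highest of its group. None of the 5 tested was called, and 4 had a negative and 1 a positive log2 fold change. The positive value was that of Alas2 (0.19, limma adjusted p = 0.77). Hba-a1, Hba-a2, Hbb-bs and Hbb-bt had log2 fold changes of -1.67, -2.35, -1.74 and -1.48 (limma adjusted p from 0.054 to 0.16), and all 4 were called lower without celastrol replicate 2 (0.0023 to 0.0068). In that fit 32.0% of all tested genes were called lower, against 20.6% with all libraries. Hba-a1 also passed under 5 other alternatives and Hba-a2 and Hbb-bs with the replicate number as a block. The part of erythroid RNA in the Hp and Hpx values was not tested.

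**Figure D5:**
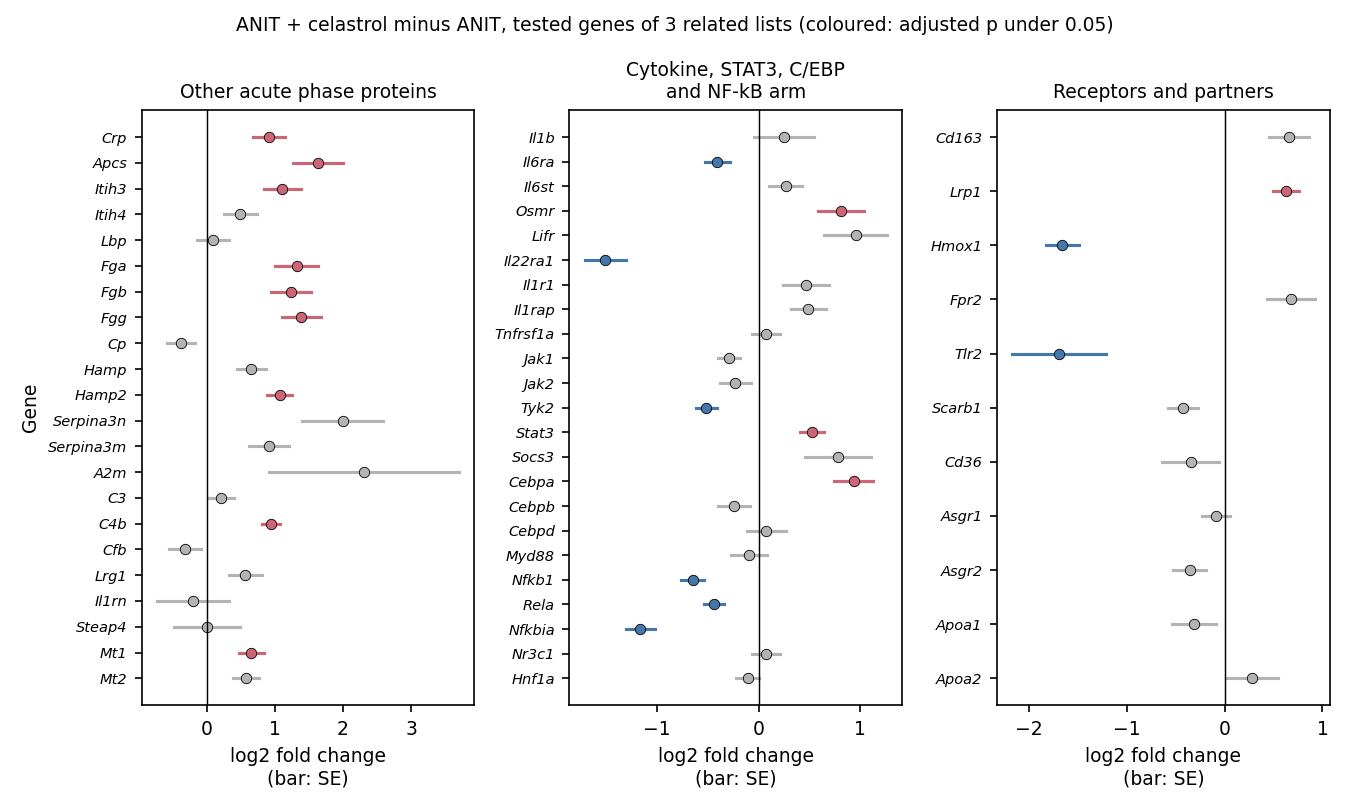
Log2 fold change (ANIT plus celastrol minus ANIT, log2(FPKM + 1) scale, bar for SE) of the tested genes of the 3 related lists. Coloured points passed the adjusted p threshold, and 9 of 22 other acute phase genes are higher, 3 and 6 of 23 signalling genes are higher and lower, and 1 and 2 of 11 receptors and partners are higher and lower.

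Markers of other cells that liver tissue can hold were low. Summed FPKM of sinusoidal endothelial markers was 23.0 to 42.9 with ANIT and 35.5 to 64.9 with celastrol. For stellate cell and fibroblast markers it was 16.4 to 31.9 and 13.9 to 50.4. Cholangiocyte markers summed to 39.1 to 46.5 and 16.8 to 45.2 FPKM, mostly from Spp1. The groups of Krt7, Krt19, Epcam and Cftr, at most 1.53 FPKM in any library, did not overlap, with celastrol lower. Those of Spp1, Sox9 and Muc1 overlapped, and Muc1 had the higher mean with celastrol. Of all tested genes 36.6% did not overlap with celastrol lower. Lymphocyte markers summed to at most 1.89 FPKM in any library. Adipocyte markers summed to 9.74 to 15.6 and 6.01 to 15.1 FPKM, nearly all from Fabp4, and Adipoq was not listed in 5 of 6 libraries. Pancreatic acinar markers summed to 4.37 to 5.18 and 5.42 to 8.15 FPKM, nearly all from Cela1. Single genes called in these lists were Stab2, higher, of 6 tested endothelial markers, and Krt19, lower, of 3 tested cholangiocyte markers. Of 10 tested macrophage markers Ly6c2 alone was called, higher. Over all tested genes 4.41% were called higher and 20.6% lower. The endothelial markers had 5 positive and 1 negative log2 fold change, the macrophage markers 9 and 1, and the cholangiocyte markers 0 and 3. Each of the 3 calls was lost when celastrol replicate 1 (Stab2, Krt19) or celastrol replicate 3 or ANIT replicate 2 or 3 (Ly6c2) was left out (limma adjusted p up to 0.056, 0.054 and 0.080).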

How the data were processed

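RNA from frozen liver was sequenced in 3 ANIT and 3 ANIT plus celastrol libraries, grouped and numbered by their titles. The deposited values are FPKM, 1 table per library, per the file headers. Alignment and counting used HISAT2 and featureCounts on mm10, per the submitters' processing notes. Their versions, the gene lengths, strand setting and handling of reads shared by paralogs were not stated in the labels or headers. For this reason the split among Saa and among Orm genes is uncertain. Symbols not listed in a library were set to 0, and 2 duplicated names that had turned into dates were dropped.

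The filter kept genes reaching 1 FPKM in 3 or more libraries, and these were fitted with limma 3.58.1 (R 4.3.3) on log2(FPKM + 1), with trend and robust variance, no covariate beside group, and Benjamini-Hochberg adjustment over 10593 genes. Log2 fold changes are on that scale, which understates changes of low genes. Il6, Tnf and other genes below the filter have values only. Depth was estimated from the steps between values of 0.1 to 1 FPKM of genes with 1 transcript of 400 to 1500 bases. Shares and family composition were compared with exact permutation tests. Alternatives were another pseudocount (0.1), other filters (none, or a mean of 5 FPKM), 4 scalings, non-robust variance, a replicate block and each library left out. The genes, the lists (analysed by counts and medians), the motifs and the tests were chosen with earlier results of these data known. All genes of the 10 are named. Of the related lists, called genes and 10 fixed genes are named, and for Saa1, Orm2, Hp and Lcn2 the 3 genes most alike. Other list genes, Alb and single markers were named after their values were seen. Promoters came from RefSeq (GRCm38.p6) and transcripts from GENCODE M21.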

Additional observations from a re-analysis of the deposited data

How the results depend on the processing

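All 10 log2 fold changes stayed positive under the alternatives run except that of Hpx after quantile normalization (-0.13). Quantile normalization gives each rank the same value in every library, so genes at the top ranks of both groups can differ only by rank. It left 3 of the 10 genes called higher (Saa2, Orm2 and Orm3), against 6, and 4 of the other acute phase genes. The median of all tested genes moved from -0.17 to -0.02 under median-ratio scaling and to -0.30 when rescaled to TPM, and that of the 10 genes from 1.25 to 1.43 and 1.12. After quantile normalization these medians were 0.01 and 0.90. The split over all genes went from 467 higher and 2185 lower to 793 and 1170 under median-ratio scaling and 873 and 952 after quantile normalization. Signalling genes were 3 higher and 6 lower, and became 5 and 3 under median-ratio scaling and 6 and 3 after quantile normalization. Receptors and partners were 1 higher and 2 lower. They became 2 and 1 under median-ratio scaling, quantile normalization or with the 20 most abundant genes left out of the scaling, and the lower count was 1 without the filter, with a mean of at least 5 FPKM and with the replicate block. The cause of these moves was not tested.

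With 1 library left out, the count of the 10 genes called higher ranged from 2 to 8 and that called lower was 0. Other acute phase genes ranged from 2 to 15 higher, signalling genes from 1 to 5 higher and 4 to 7 lower, and receptors and partners from 0 to 2 higher and 1 to 3 lower. Over all tested genes the share called higher then ranged from 1.87% to 4.56%, and that called lower from 8.77% to 32.0%. The difference in the summed share ranged from 8.92 to 15.6 points, and the 4 family shares kept their direction. Same-numbered libraries correlated at 0.15, 0.23 and -0.09 in their deviations from the group means, so the numbers were not taken as pairs. With the replicate block 6 of the 10 genes were again called higher, and the exact sign-flip test of the summed share gave p = 0.25, the smallest that 3 pairs allow. ANIT replicate 1 correlated best with celastrol replicate 3, not with its own number.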

Other observations

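A2m, the alpha-2-macroglobulin gene, had the library order of Saa3 in the celastrol group, an order shared by Saa1, Saa2, Orm1, Orm2, Hp and Hpx. In the ANIT group A2m was highest in replicate 1, the lowest library for Saa3. It measured 3.98, 0.71 and 0.53 FPKM with ANIT against 43.7, 0.34 and 25.7 FPKM with celastrol replicates 1, 2 and 3. Celastrol replicate 2 lay below all ANIT libraries. Serpina3n, a protease inhibitor, measured 1878, 736.5 and 639.8 FPKM with ANIT against 5218, 1770 and 6081 FPKM with celastrol, so ANIT replicate 1 and celastrol replicate 2 lay close together (log2 fold change 1.99, limma adjusted p = 0.054, range over the libraries left out 0.014 to 0.16). Both genes were singled out after their values were seen.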
